A study of Mus musculus with 4 samples.

Results

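Mammalian oxidative phosphorylation runs on 5 multi-subunit complexes of the inner mitochondrial membrane, and most of their subunits are encoded in the nucleus. The 79 nuclear genes described here were taken by symbol, as Nduf a, b, c, s and v subunits, Sdha to Sdhd, Uqcr subunits, Cox5 to Cox8 subunits and Atp5 subunits with at least 10 unique molecular identifiers (UMIs) in all cells together, out of 32285 genes in the matrix. By complex they were 36 genes of complex I, 4 of complex II, 8 of complex III, 14 of complex IV and 17 of complex V. The symbol patterns matched 83 genes, and the 4 left out by the minimum were Ndufa4l2 and Cox8b with 9 UMIs each and Cox7b2 and Cox8c with 0 UMIs. The members with the fewest UMIs were Cox6a2 (1310), Cox6b2 (2418) and Cox7a1 (8345). Ndufa4, named after complex I, is placed with complex IV here because its protein was reassigned to that complex.

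Complexes I and II pass electrons from NADH and succinate to ubiquinone, complex III passes them to cytochrome c, and complex IV, cytochrome c oxidase, passes them to oxygen. Complexes I, III and IV pump protons, and complex V, the ATP synthase, uses the proton gradient to make ATP. A small core of subunits is encoded by mitochondrial DNA, so the complexes need products of both genomes, and in macrophages the balance between oxidative phosphorylation and glycolysis is known to shift with activation state.

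CD45+ cells were sorted from subcutaneous melanomas of Rag2-/- mice, which have no T or B cells of their own, 72 h after adoptive transfer of OT-1 CD8 T cells specific for an ovalbumin peptide. Tumours came from YUMM1.7 mouse melanoma cells, which carry an activated Braf allele and here expressed ovalbumin. The 4 groups, with 1 sample each, were a clone naive to targeted therapy (NTT), a clone resistant to it (RTT), the RTT_ROSA26 line, made from RTT with a guide that cuts the neutral Rosa26 locus, and the RTT_PTGS12KO line, in which both cyclooxygenase genes, Ptgs1 and Ptgs2, were knocked out. The knockout was in the injected cancer cells, not in the sorted immune cells. T cells were given on day 7 and tumours taken on day 10. The labels give 1 tumour per condition, whereas legends of the study speak of pooled tumours, and which applies here was not settled. Since each group is 1 sample, differences could not be set against replicates and none was tested. Ratios carry 95% intervals that cover counting error only.

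The 4 samples held 6836 to 10296 cells and 69332486 to 146829369 UMIs, with a median of 7293 UMIs per cell in NTT and 12219 to 13280 in the other 3 samples. Cell names carried 3 different numbers, each present in all 4 samples, which are read here as 3 droplet loads. The labels do not name these loads. No cell barcode was shared by 2 samples within a load, and at most 17 barcode sequences were shared by any 2 samples over all loads. Of 42 marker genes of the named cell classes, 39 were highest in a cell type of their own class, and the exceptions were Ccr2, Flt3 and Mitf. For this check only, the type Macro, where the macrophage marker Mrc1 was highest, was counted as a macrophage type.

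Nuclear oxidative phosphorylation genes took nearly the same share of UMIs in every tumour. The summed share over all CD45+ cells was 2.95% (NTT), 2.86% (RTT), 3.17% (RTT_ROSA26) and 3.05% (RTT_PTGS12KO). Over the 3 loads, read as technical repeats, it ranged from 2.94% to 2.96% (NTT), 2.83% to 2.89% (RTT), 3.16% to 3.19% (RTT_ROSA26) and 3.03% to 3.06% (RTT_PTGS12KO). The load ranges of the 4 samples did not overlap, although the samples differed little in size. By complex the share ranged over the 4 samples from 0.86% to 0.93% for complex I, 0.038% to 0.043% for complex II, 0.27% to 0.34% for complex III, 0.76% to 0.84% for complex IV and 0.90% to 1.03% for complex V.

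Cell types differed far more than tumours. Ctsk_Macro, the macrophages that the authors named after cathepsin K, had the highest share in each of the 3 tumours where they numbered at least 50 cells, at 4.91% (RTT), 5.56% (RTT_ROSA26) and 5.12% (RTT_PTGS12KO). The next type down was TAM_H2Ab1 in RTT (3.28%), Monocyte_1 in RTT_ROSA26 (3.20%) and Macro in RTT_PTGS12KO (3.39%). Neutrophils had the lowest share in all 4 tumours, at 2.12% (NTT), 1.72% (RTT), 2.36% (RTT_ROSA26) and 2.06% (RTT_PTGS12KO). Between these ends, cycling macrophages varied least of the 5 types measured in all 4 tumours, with 3.02% to 3.12%, and TAM_Spp1 held 2.68% to 2.83% over 3 tumours. The order of the middle types differed between tumours. In RTT_PTGS12KO Infl_Mono and TAM_C1q both held 2.84%, with overlapping counting intervals. Because cells were clustered on their expression, levels by cell type are a description.

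**Figure D1:**
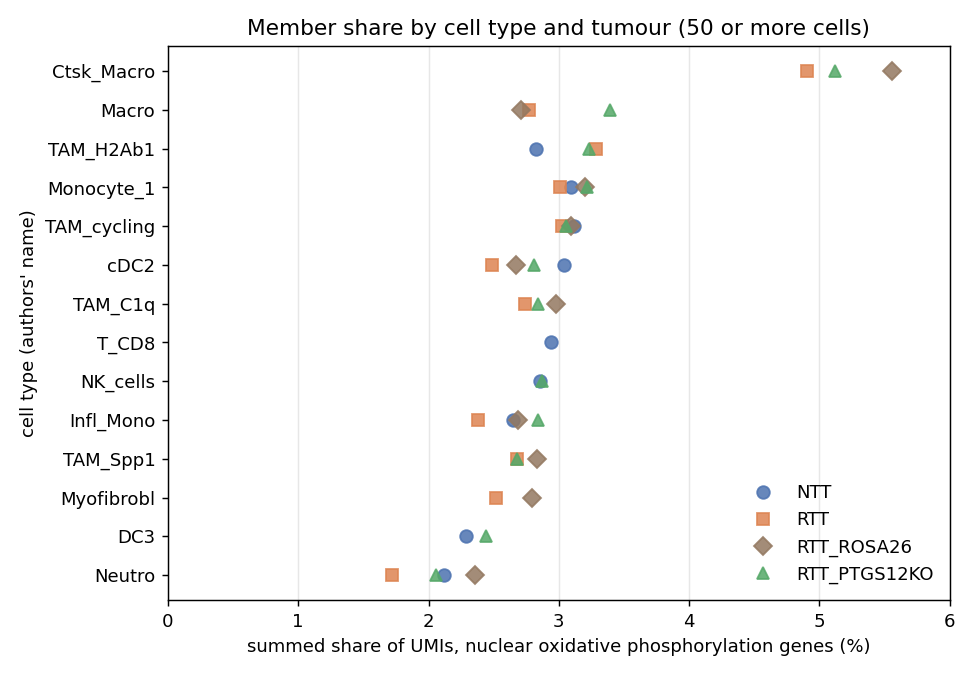
Summed share of UMIs taken by the 79 nuclear oxidative phosphorylation genes (horizontal axis, percent) in each cell type with at least 50 cells (vertical axis), with 1 point per tumour. Ctsk_Macro lies between 4.91% and 5.56%, apart from every other type, and Neutro lies lowest in each tumour.

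By mean CPM over tumours with at least 50 cells of a type, Ctsk_Macro was the highest type for 74 of 79 members, the exceptions being Ndufv3, Ndufb7, Ndufb1-ps, Cox6a2 and Cox6b2. The gene in the label, Ctsk, which encodes a collagen-degrading protease, stood at 14593 CPM (RTT), 13932 CPM (RTT_ROSA26) and 14770 CPM (RTT_PTGS12KO) in these cells and at 43.0, 39.6 and 26.2 CPM in the other macrophages of these tumours. CPM is UMIs per 1000000 UMIs of the summed cells. Ctsk_Macro counted 329 (RTT), 401 (RTT_ROSA26) and 188 (RTT_PTGS12KO) cells, but only 5 in NTT, which was left out. Against the other macrophages of the same tumour (TAM_C1q, TAM_Spp1, TAM_cycling and TAM_H2Ab1), their summed share was 4.91% against 2.79% in RTT, 5.56% against 3.01% in RTT_ROSA26 and 5.12% against 2.94% in RTT_PTGS12KO. This corresponds to log2 ratios of 0.82, 0.89 and 0.80. In cells with 8000 to 16000 UMIs only, a window chosen after seeing the data, the log2 ratios were 0.67, 0.63 and 0.65, with 126, 110 and 55 Ctsk_Macro cells. Ctsk_Macro had higher median UMI counts (16793 to 19418 per cell) than the other macrophages (12771 to 15499). The window also changes which cells are compared, and the part of depth in the difference was not tested.

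Gene by gene, levels were compared as log2 ratios of CPM + 1, for genes whose mean CPM over both sums was 10 or more. All members but Cox6a2 and Cox6b2 met that minimum. All 77 were higher in Ctsk_Macro in all 3 tumours, where 2183 of 6654 genes were. A difference of at least 1.5-fold is used as a size limit without a test. In RTT 62 of 77 members were higher by that fold, where the share over all genes was 14.7%. In RTT_ROSA26 66 of 77 were, against 14.7% of all genes, and in RTT_PTGS12KO 59 of 77, against 16.3%. In all 3 tumours together 57 of 77 members passed it, against 10.5% of 6654 genes. No member was lower by that fold in all 3, where 748 of 6654 genes were. By complex the counts were 21 of 36 for complex I, 4 of 4 for complex II, 8 of 8 for complex III, 10 of 12 for complex IV and 14 of 17 for complex V. By summed share, log2 ratios over the 3 tumours ran from 1.14 to 1.34 for complex II and 1.06 to 1.17 for complex III, and from 0.64 to 0.73 for complex I.

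**Figure D2:**
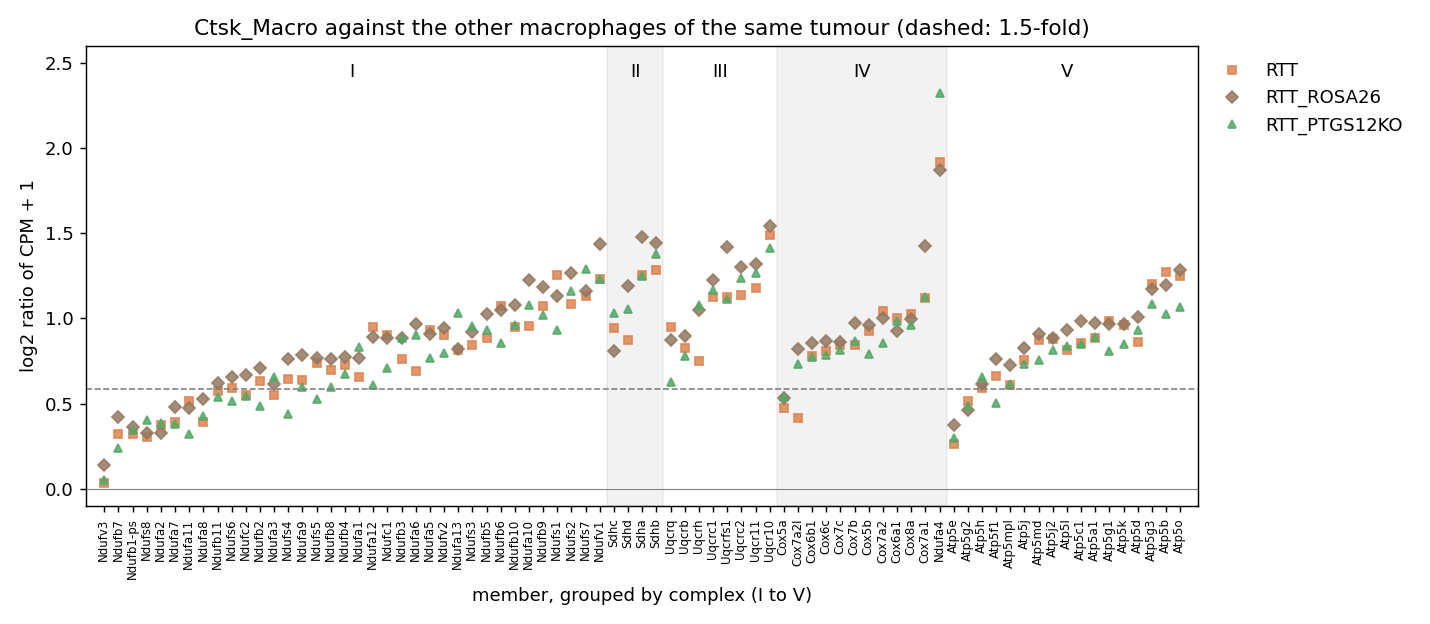
Log2 ratio of CPM + 1 between Ctsk_Macro and the other macrophages of the same tumour (vertical axis) for the 77 members with at least 10 CPM (horizontal axis, grouped by complex and sorted by mean), with 1 point per tumour and a dashed line at 1.5-fold. All points lie above 0, and Ndufa4 lies highest, between 1.87 and 2.32.

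In complex I, Ndufv1, which binds the flavin that accepts electrons from NADH, reached 147.0 (RTT), 176.7 (RTT_ROSA26) and 149.4 CPM (RTT_PTGS12KO) in Ctsk_Macro, against 62.1, 64.6 and 62.9 in the other macrophages. Its log2 ratios were 1.23, 1.44 and 1.23. Ndufs1, the largest iron-sulfur subunit, stood at 63.3, 68.5 and 50.1 CPM in Ctsk_Macro against 26.0, 30.7 and 25.8. At the other end, the accessory subunit Ndufv3 differed by log2 ratios of only 0.03, 0.14 and 0.05, the smallest of all members. Complex I thus held both members that differed strongly and a member at nearly equal levels.

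Complex II, succinate dehydrogenase, also works in the citric acid cycle. Sdha, its flavoprotein, stood in the same order of tumours, at 164.5, 222.4 and 176.8 CPM in Ctsk_Macro, against 68.4, 79.2 and 73.8 in the other macrophages. Sdhb, the iron-sulfur subunit, stood at 372.9, 465.5 and 435.5 CPM against 152.5, 170.9 and 166.7. All Ctsk_Macro values of both genes lay above those of the other macrophages. The membrane anchors Sdhc and Sdhd were higher by mean log2 ratios of 0.93 and 1.04.

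In complex III, Uqcr10, a small subunit, singled out after its values were seen, stood at 1335, 1538 and 1441 CPM in Ctsk_Macro against 474.2, 526.4 and 541.1, the second largest difference of all members. Uqcrfs1, the Rieske iron-sulfur protein, stood at 272.4, 338.9 and 315.8 CPM against 124.4, 126.1 and 145.2. The core proteins Uqcrc1 and Uqcrc2 had mean log2 ratios of 1.17 and 1.23, and the 8 genes of the complex ran from 0.82 to 1.48.

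In complex IV, Ndufa4 differed more than any other member, with 1228 (RTT), 1462 (RTT_ROSA26) and 1179 CPM (RTT_PTGS12KO) in Ctsk_Macro against 324.7, 398.9 and 235.1, or log2 ratios of 1.92, 1.87 and 2.32. Cox7a1, the isoform typical of heart and skeletal muscle, stood at 45.5, 60.7 and 49.9 CPM against 20.4, 22.0 and 22.4. Cox5a, a structural subunit, had the smallest mean log2 ratio of the complex, 0.51. In complex V, Atp5b, the catalytic beta subunit, stood at 941.9, 1143 and 1037 CPM against 389.3, 497.6 and 508.4. Of the 3 genes for the same c-ring protein, Atp5g3 had a mean log2 ratio of 1.15, Atp5g1 0.92 and Atp5g2 0.49.

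The promoters of some of these genes are shown because the members were higher together in Ctsk_Macro and because nuclear respiratory genes are known targets of shared factors, among them NRF1, the ETS factor GABP, YY1 and estrogen-related receptors (ERR). RefSeq windows of 300 bases around the start site in GRCm38.p6 were matched for 67 of 79 members, and 4 motifs were searched on both strands, with no motif contained in another. GCATGCGC (NRF1) was held by 14.9% of member windows, against 6.44% of windows of genes with at least 10 CPM over all cells and 2.80% of all 27025 windows. CCGGAAG (ETS) was held by 23.9%, against 21.6% and 9.12%. AAGATGGCG (YY1) was held by 8.96%, against 3.91% and 1.49%. TCAAGGTCA (ERR) was held by 2 member windows, those of Sdhd and Atp5g3, or 2.99%, against 0.264% and 0.407%. In Ctsk_Macro, members with and without a motif had median log2 ratios of 0.89 and 0.85 for NRF1, 0.92 and 0.85 for ETS, 0.75 and 0.87 for YY1, and 1.10 (2 members) and 0.86 for ERR, all of the members' mean over 3 tumours. A match is a run of letters and not a measured binding site.

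The windows of Sdhb (chr4:140961021-140961320, plus strand), Sdhd (chr9:50603800-50604099, minus strand) and Atp5g3 (chr2:73911277-73911576, minus strand) hold matches, which stand in capitals, and that of Ndufa4 (chr6:11907401-11907700, minus strand), the member that differed most, holds none of the 4. All are written 5′ to 3′ along the gene.
Sdhb: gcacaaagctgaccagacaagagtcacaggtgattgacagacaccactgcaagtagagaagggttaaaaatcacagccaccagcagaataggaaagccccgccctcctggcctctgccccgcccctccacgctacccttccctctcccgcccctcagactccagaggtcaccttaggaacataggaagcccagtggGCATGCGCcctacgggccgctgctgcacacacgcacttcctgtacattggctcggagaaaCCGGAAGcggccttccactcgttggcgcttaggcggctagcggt
Sdhd: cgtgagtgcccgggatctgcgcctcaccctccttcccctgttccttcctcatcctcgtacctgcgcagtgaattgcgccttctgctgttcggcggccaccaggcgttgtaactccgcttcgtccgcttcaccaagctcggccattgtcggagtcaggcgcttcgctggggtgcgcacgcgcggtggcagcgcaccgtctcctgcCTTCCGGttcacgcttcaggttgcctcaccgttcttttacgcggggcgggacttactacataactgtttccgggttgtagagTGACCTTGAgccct
Atp5g3: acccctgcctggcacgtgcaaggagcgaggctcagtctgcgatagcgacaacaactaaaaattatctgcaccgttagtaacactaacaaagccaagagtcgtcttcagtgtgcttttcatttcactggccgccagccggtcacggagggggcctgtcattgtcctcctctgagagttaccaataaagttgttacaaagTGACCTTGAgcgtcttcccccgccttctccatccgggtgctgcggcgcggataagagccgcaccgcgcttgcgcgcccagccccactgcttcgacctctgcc
Ndufa4: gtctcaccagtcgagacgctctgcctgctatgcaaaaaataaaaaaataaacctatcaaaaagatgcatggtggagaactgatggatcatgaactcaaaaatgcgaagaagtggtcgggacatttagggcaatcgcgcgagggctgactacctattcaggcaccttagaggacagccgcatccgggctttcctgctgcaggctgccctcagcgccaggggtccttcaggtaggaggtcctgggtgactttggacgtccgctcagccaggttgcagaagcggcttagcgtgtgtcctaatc
In Sdhb the capitals mark an NRF1 and an ETS match, in Sdhd an ETS and an ERR match, both on the other strand, and in Atp5g3 an ERR match on the other strand.

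Other mitochondrial lists were compared in the same way, against the 10.5% of all genes that were higher by 1.5-fold in all 3 tumours. Citric acid cycle genes were higher in Ctsk_Macro by 1.5-fold in all 3 tumours for 13 of 17 genes, with a median of 0.94, and mitochondrially encoded subunits for 8 of 13, with a median of 0.75. Assembly factors passed for 6 of 35 genes (median 0.38), mitochondrial ribosomal proteins for 12 of 78 (0.35) and regulators of mitochondrial biogenesis for 2 of 9 (0.17). Of these 9 regulators, 5 were higher and 3 lower in all 3 tumours at any size of difference, where 2183 and 2653 of 6654 genes were. Cytosolic ribosomal proteins passed for 0 of 84 (-0.02), and all genes tested had a median of -0.05. Among regulators, Ppargc1b, a coactivator of mitochondrial genes, singled out after its values were seen, stood at 50.01 (RTT), 56.6 (RTT_ROSA26) and 60.2 CPM (RTT_PTGS12KO) in Ctsk_Macro, against 2.31, 3.10 and 5.11 in the other macrophages.

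The monocytes named Infl_Mono had a smaller summed share than Monocyte_1 in all 4 tumours, at 2.65% against 3.09% (NTT), 2.38% against 3.01% (RTT), 2.69% against 3.20% (RTT_ROSA26) and 2.84% against 3.21% (RTT_PTGS12KO). Of 76 members 51 were lower in all 4 tumours and 0 were higher in all 4, where 1379 and 982 of 5758 genes were. The median of the members' mean log2 ratios was small, at -0.27, against -0.05 for all genes. No member was lower by 1.5-fold in all 4, where 27 of 5758 genes were. Single members passed that fold in some tumours. Ndufa12, the lowest by mean, stood at -0.38 (NTT), -0.66 (RTT), -1.08 (RTT_ROSA26) and -0.80 (RTT_PTGS12KO). RTT_ROSA26 enters with 86 and 54 cells of these types. In the same comparison mitochondrial ribosomal proteins had a median of -0.36, citric acid cycle genes -0.26, assembly factors -0.24, biogenesis regulators -0.01, cytosolic ribosomal proteins -0.05 and mitochondrially encoded subunits 0.01. Of the mitochondrial ribosomal proteins, 48 of 73 were lower in all 4 tumours.

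Among macrophages, TAM_cycling had 57 of 77 members higher than TAM_C1q in all 3 RTT tumours and 9 lower, where 3043 and 1998 of 6718 genes were, with a median of 0.13, against 0.05 for all genes. In that comparison mitochondrial ribosomal proteins were higher in all 3 for 68 of 78 genes (median 0.25), citric acid cycle genes for 15 of 16 (0.27) and biogenesis regulators for 7 of 8 (0.34). Assembly factors were higher for 10 of 27 (0.01), cytosolic ribosomal proteins for 26 of 84 (0.03) and mitochondrially encoded subunits for 3 of 13 (-0.03). TAM_Spp1 had 49 of 77 lower and 6 higher, where 3374 and 1284 of 6350 genes were, with a median of -0.11, against -0.12 for all genes. The median of the members in TAM_Spp1 was thus nearly that of all genes.

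NTT against RTT asks how the therapy-naive and the resistant tumour differ, and was followed in monocytes, of which NTT held 6619 and RTT 522. The nuclear genes hardly differed, with a summed share of 2.99% in NTT and 2.84% in RTT, a log2 ratio of 0.07 (interval 0.06 to 0.08) that turned to -0.0027 when mitochondrially encoded and ribosomal protein genes were left out of the denominator. Of 76 members 0 passed 1.5-fold either way, where 9.43% of all genes did. The median was 0.06 for the members and 0.03 for all genes.

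The members with the highest ratios were Cox8a, the common small subunit of complex IV, at 1526 CPM in NTT and 1190 in RTT (log2 ratio 0.36, interval 0.32 to 0.40), Ndufs3 (0.32), Atp5b (0.30) and Ndufb3 (0.30). The lowest were Cox7a2l, which helps join complexes III and IV into supercomplexes, at 292.2 CPM in NTT and 366.4 in RTT (-0.33, interval -0.40 to -0.26), Ndufb11 (-0.30), Uqcr11 (-0.23) and Ndufb10 (-0.22). Members of the same complex thus stood at both ends.

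The mitochondrially encoded subunits differed more than the nuclear ones. In monocytes they took 1.66% of UMIs in NTT and 2.56% in RTT, a log2 ratio of -0.63, and 9 of 13 genes were lower in NTT by 1.5-fold, where 233 of 6499 genes were. In cells with 8000 to 16000 UMIs, again chosen after seeing the data, the log2 ratio was -0.53. In the 6 cell types with at least 50 cells in both tumours, the mitochondrially encoded share was lower in NTT in 6, with log2 ratios from -1.40 to -0.44, while the nuclear share was higher in NTT in 5, with log2 ratios from -0.22 to 0.30. Median depth in monocytes was 7113 UMIs per cell in NTT and 8404 in RTT, and its part in this difference was not tested.

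**Figure D3:**
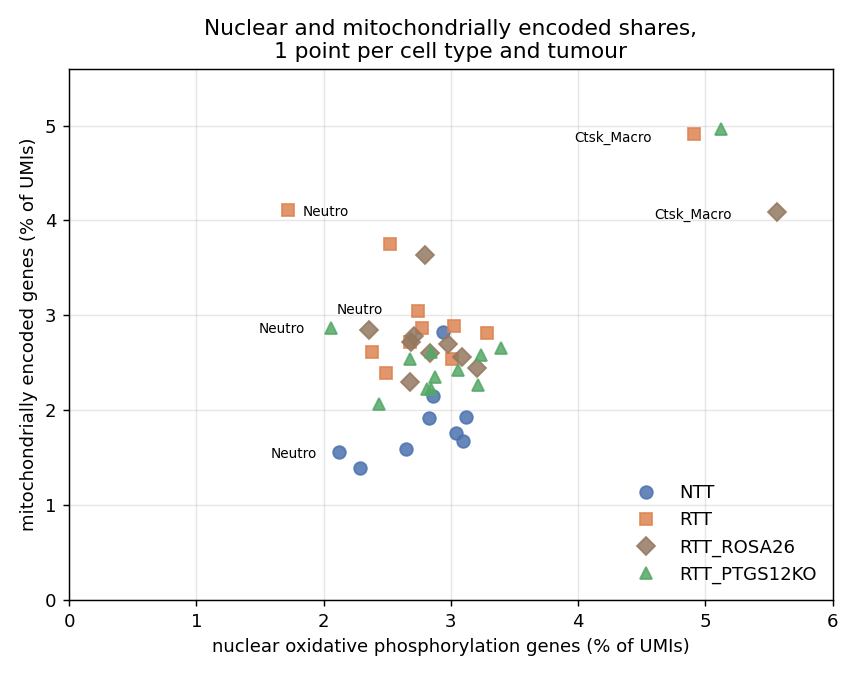
Summed share of UMIs of the 79 nuclear genes (horizontal axis, percent) and of the 13 mitochondrially encoded subunit genes (vertical axis, percent), with 1 point per cell type and tumour. Ctsk_Macro lies high on both axes, RTT neutrophils lie high on the vertical axis only, and in each of the 6 types measured in both, the NTT point lies below the RTT point on the vertical axis.

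RTT_PTGS12KO against RTT_ROSA26 asks what loss of the cyclooxygenases in the cancer cells did, and was followed in macrophages (5207 and 5993 cells). The summed share was 3.03% in RTT_PTGS12KO and 3.23% in RTT_ROSA26, a log2 ratio of -0.09 that became 0.0079 under TMM scaling. Without Ctsk_Macro (188 and 401 of these cells), an alternative chosen after seeing the data, the share was 2.94% against 3.01%, a log2 ratio of -0.033. Of 77 members 1 passed 1.5-fold, where 7.79% of all genes did either way. The median was -0.10 for the members and -0.08 for all genes. In monocytes (4015 and 144 cells) the summed share went the other way, at 3.17% against 2.89%, a log2 ratio of 0.13 (interval 0.11 to 0.15). Within monocyte types the log2 ratio was 0.081 in Infl_Mono and 0.0049 in Monocyte_1, where the interval included 0.

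The member that passed was Ndufa4, at 275.7 CPM in RTT_PTGS12KO and 490.5 in RTT_ROSA26, with 380.1 in RTT and 230.1 in NTT, where 308 macrophages were counted. Its log2 ratio was -0.83 (interval -0.85 to -0.81). Ctsk_Macro, where Ndufa4 was highest, made up 188 of 5207 macrophages in RTT_PTGS12KO and 401 of 5993 in RTT_ROSA26, and without them Ndufa4 stood at 235.1 and 398.9 CPM (-0.76). The next lowest were Ndufs7 (-0.33), Ndufs1 (-0.33) and Uqcr11 (-0.26), and the highest were Ndufv3 (0.18), Ndufs4 (0.13), Ndufb1-ps (0.13) and Uqcrfs1 (0.08). Ndufa4 was thus far outside the range of the other members.

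**Figure D4:**
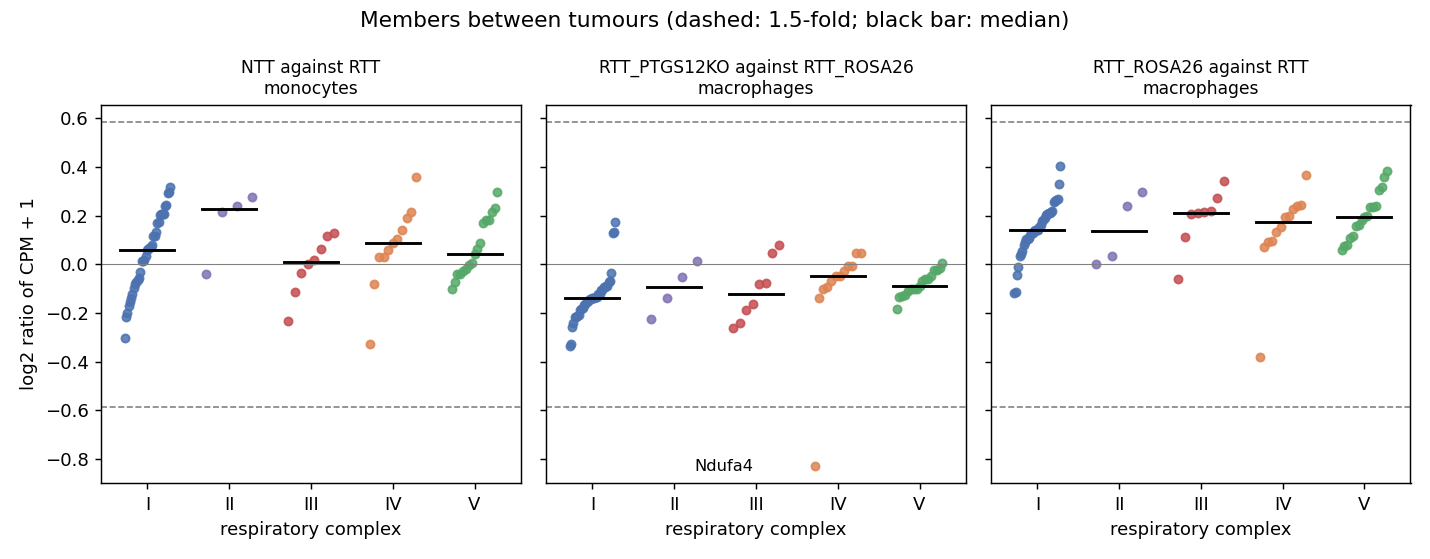
Log2 ratio of CPM + 1 (vertical axis) of each member with at least 10 CPM, by complex (horizontal axis), for 3 comparisons of tumours, with black bars at the median of a complex and dashed lines at 1.5-fold. Only Ndufa4, at -0.83 in RTT_PTGS12KO against RTT_ROSA26, lies outside the dashed lines.

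The lower Ndufa4 level was found in several macrophage types. In TAM_C1q it stood at 239.9 CPM in RTT_PTGS12KO and 378.9 in RTT_ROSA26 (log2 ratio -0.66), and Ndufa4 was the 1 member of 77 lower by 1.5-fold, where 2.43% of all genes were. In TAM_Spp1 it stood at 157.7 and 353.6 CPM (-1.16), again the 1 member of 77, against 2.95% of all genes. In TAM_cycling it stood at 255.3 and 429.8 CPM (-0.75), again the 1 member of 77, against 4.78%. In Ctsk_Macro it stood at 1179 and 1462 CPM (-0.31), below the fold, and in Neutro at 207.9 and 312.4 CPM (-0.59). In Infl_Mono (468 and 445 CPM) and Monocyte_1 (312 and 323 CPM) the intervals of the log2 ratio included 0. RTT itself, which shares the intact cyclooxygenase genes with RTT_ROSA26, stood between the 2 in all 3 of the first types, at 333.8 CPM in TAM_C1q, 247.0 in TAM_Spp1 and 395.9 in TAM_cycling. NTT held 246.3 CPM in its 79 TAM_cycling cells.

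AA467197 encodes a relative of NDUFA4 that is known to take its place in complex IV in inflamed cells. It is no member and was chosen after its values were seen. It stood higher in RTT_PTGS12KO than in RTT_ROSA26 where Ndufa4 stood lower, at 673.6 against 356.2 CPM in TAM_C1q, 1239 against 634.4 in TAM_Spp1 and 879.8 against 402.0 in TAM_cycling. In Ctsk_Macro, where Ndufa4 was highest, AA467197 was low, at 39.3 (RTT), 48.3 (RTT_ROSA26) and 128.2 CPM (RTT_PTGS12KO). NTT TAM_cycling held 742.4 CPM. In monocytes AA467197 was lower in RTT_PTGS12KO than in RTT_ROSA26, at 1096 against 1722 CPM in Monocyte_1 and 499.6 against 700.9 CPM in Infl_Mono, with 54 and 86 cells in RTT_ROSA26. The intervals of the Ndufa4 log2 ratio included 0 in both types. Across cell types with at least 50 cells, the correlation of log2(CPM + 1) of both genes was -0.62 (NTT, 9 types), -0.82 (RTT, 11 types), -0.68 (RTT_ROSA26, 10 types) and -0.89 (RTT_PTGS12KO, 12 types), and Spearman's rho was -0.20, -0.68, -0.67 and -0.83. The types of a tumour share a library, so this is a description with no test.

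**Figure D5:**
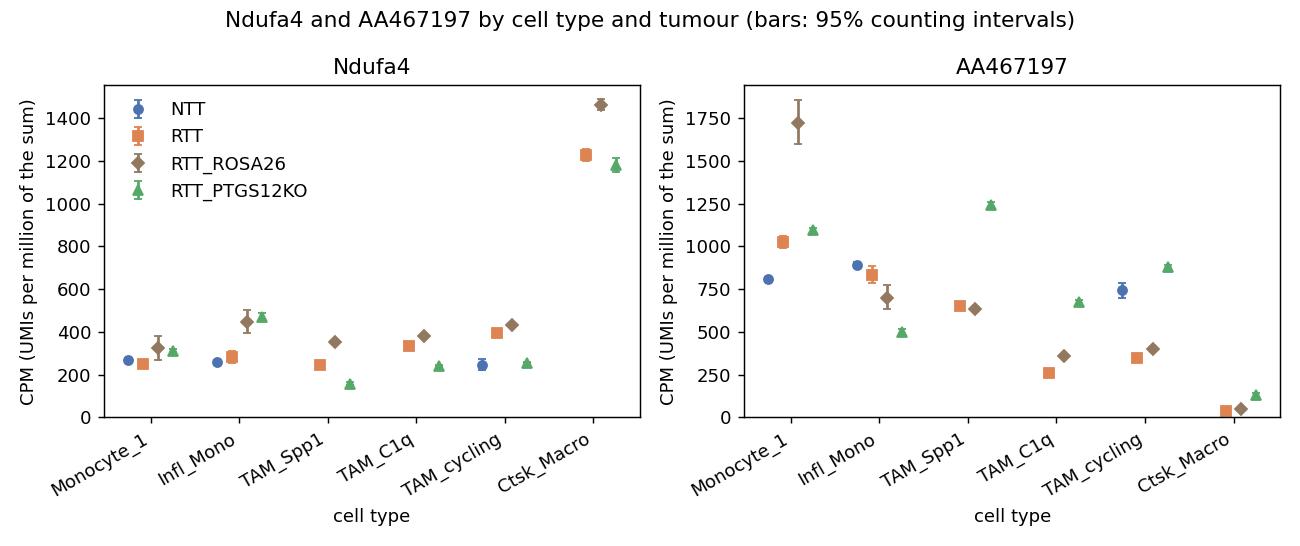
CPM of Ndufa4 (left) and AA467197 (right) by cell type and tumour, for types with at least 50 cells in a tumour, with bars for 95% exact Poisson intervals of counting error. In TAM_Spp1, TAM_C1q and TAM_cycling the RTT_PTGS12KO points are below the RTT_ROSA26 points for Ndufa4 and above them for AA467197.

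RTT_ROSA26 against RTT compares tumours that both keep the cyclooxygenases and shows how far like tumours lay apart. It shares RTT_ROSA26 with the knockout comparison and RTT with that of NTT. In macrophages (5993 and 6734 cells) the summed share was 3.23% and 2.92%, a log2 ratio of 0.15 that became 0.05 under TMM scaling. Of 77 members 0 passed 1.5-fold, where 5.85% of all genes did, and 71 of 77 had ratios above 0, where 4403 of 7058 genes did, with a median of 0.18 against 0.06 for all genes. The highest were Ndufa12 (0.40), Atp5b (0.39), Ndufa4 (0.37) and Atp5g1 (0.36), and the lowest were Cox7a2l (-0.38), Ndufa6 (-0.12), Ndufv3 (-0.12) and Uqcrh (-0.06). The summed difference was larger here than in the knockout comparison, while Ndufa4 differed less in it than in the knockout comparison.

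Cox7a2l had the lowest ratio in both comparisons against RTT, which share the RTT sample. In macrophages it stood at 299.7 (NTT), 381.0 (RTT), 292.2 (RTT_ROSA26) and 302.0 CPM (RTT_PTGS12KO). In monocytes it stood at 292.2, 366.4, 262.4 and 285.5 CPM. The RTT sample thus stood above the other 3 in both classes, while Ctsk_Macro held 484.0 to 499.1 CPM in the 3 RTT tumours.

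Neutrophils varied the most between tumours. In RTT_ROSA26 against RTT (146 cells each) 27 of 77 members were higher by 1.5-fold, where 17.9% of all genes were, and the log2 ratio of the summed share was 0.45. In NTT against RTT (106 and 146 cells) 8 of 75 members were higher, below the 12.0% of all genes. RTT neutrophils also had the highest mitochondrially encoded share of the type, 4.11%, against 1.56% (NTT), 2.85% (RTT_ROSA26) and 2.87% (RTT_PTGS12KO), and its part in the lower nuclear share was not tested.

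The tissue-restricted isoforms were rare, and their common partners were seen in every type. Ndufa4l2, Cox8b, Cox7b2 and Cox8c were close to or at 0, while Cox6a1, Cox6b1, Cox7a2, Cox7b and Cox8a, the common forms, differed 2.25-fold to 2.98-fold between the highest and the lowest type. Over the same types Cox7a1 differed 18.1-fold and Ndufa4 8.81-fold, all folds being of CPM + 1. Cox6a2, the isoform of heart and skeletal muscle, stood in cDC2 at 80.1 (NTT), 13.2 (RTT), 29.9 (RTT_ROSA26) and 12.3 CPM (RTT_PTGS12KO), in Ctsk_Macro of the 3 RTT tumours at 14.0, 4.66 and 7.24 CPM, and in Monocyte_1 at 0 to 0.63 CPM. It was therefore highest in cDC2 except in RTT, where Ctsk_Macro was slightly above. In NTT against RTT in cDC2 (282 and 174 cells) 6 of 78 members were higher by 1.5-fold, below the 11.6% of all genes. The members' summed share there was nonetheless higher, at 3.04% in NTT and 2.49% in RTT. That is a log2 ratio of 0.29 (interval 0.27 to 0.30), against an all-gene median of -0.015. Within cDC2, 335 of 341 Cox6a2 UMIs came from 41 of 1088 cells that held a UMI of Siglech or Ccr9, genes known from plasmacytoid dendritic cells and chosen after their values were seen. There were 21 (NTT), 2 (RTT), 10 (RTT_ROSA26) and 8 (RTT_PTGS12KO) such cells, and Cox6a2 stood at 1010 CPM in them and at 0.578 CPM in the remaining cDC2. Within such cells the level was 1259.5 (NTT), 812 (RTT), 1278 (RTT_ROSA26) and 486 CPM (RTT_PTGS12KO), values that rest on as few as 2 cells and allow no comparison of levels between tumours. Cox6b2, the testis isoform, stood at 6.82 to 19.7 CPM in cDC2 and at 1.48 to 7.57 CPM in macrophages.

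Genes of the chain outside the symbol rule behaved partly alike. Cox4i1, the common subunit 4 of complex IV, stood in macrophages at 1112 (NTT), 1376 (RTT), 1435 (RTT_ROSA26) and 1276 CPM (RTT_PTGS12KO), and at 2411, 2580 and 2427 CPM in Ctsk_Macro of the 3 RTT tumours. Cox4i2, its hypoxia-linked isoform, reached at most 1.72 CPM in macrophages. Cycs, which encodes cytochrome c, stood at 496.6 CPM in NTT and 280.0 in RTT in monocytes, a log2 ratio of 0.82, which is past the fold that no nuclear member reached there.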

How the data were processed

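The authors sorted CD45+ cells, marked the 4 samples with multiplexing oligos and sequenced 3′ tags. Per the study's methods, Cell Ranger counted reads against mm10, a cell needed more than 1000 genes, less than 15% mitochondrial and less than 40% ribosomal UMIs, and Seurat 4.3.0 was used to name cell types. The deposited file holds raw UMI counts of 32285 genes in 33368 cells, all of which met the gene and mitochondrial limits. How reads shared with pseudogene copies were counted was not tested.

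UMIs were summed per sample and cell type and divided by total UMIs (numpy 2.4.6, Python 3.11.15). Shares carry exact Clopper-Pearson intervals and levels exact Poisson intervals, at 95%. TMM scaling used edgeR 4.0.16 (R 4.3.3), with no test. Monocytes are Infl_Mono, Monocyte_1 and Monocyte_3. Macrophages are Ctsk_Macro, TAM_C1q, TAM_H2Ab1, TAM_Spp1 and TAM_cycling, with Macro kept apart. No doublet caller was run, and oligos mark only doublets between samples. Named genes were the 4 highest and 4 lowest members of each comparison between tumours, tissue-restricted isoforms with their common partners, core subunits, and Cox4i1, Cox4i2 and Cycs. Others named by value (Uqcr10 and Uqcrc2 among the Ctsk_Macro results, and genes outside the set) were chosen after their values were seen. Ratios and intervals were tested on simulated Poisson counts. These hold counting error only, so they cannot show how the intervals fit differences between cells or tumours. Promoter windows came from RefSeq (GRCm38.p6). Members, lists and alternatives were chosen with earlier results of these data known.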

Additional observations from a re-analysis of the deposited data

Results flagged for a closer look

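In each comparison the cell types with the highest and the lowest log2 ratio of the summed share of the nuclear genes had counting intervals on opposite sides of 0. The ratio was above 0 in 5 of 6 types for NTT against RTT, in 4 of 9 for RTT_PTGS12KO against RTT_ROSA26 and in 9 of 10 for RTT_ROSA26 against RTT, so that in the first and the last a single type lay below 0. The difference between the types was not tested, since each group has 1 sample. For NTT against RTT the log2 ratio was 0.30 in Neutro and -0.22 in TAM_H2Ab1, a gap of 0.52, with all-gene medians of -0.025 and -0.0093. For RTT_PTGS12KO against RTT_ROSA26 it was 0.33 in Macro and -0.20 in Neutro, also a gap of 0.52, with all-gene medians of -0.083 and -0.17, so that the members in Neutro lay only -0.023 from all genes there. For RTT_ROSA26 against RTT it was 0.45 in Neutro and -0.04 in Macro, a gap of 0.49, with all-gene medians of 0.18 and 0.063. Neutro (106 to 146 cells), Macro (96 to 130 cells) and the TAM_H2Ab1 cells of RTT (63) are small groups, and Neutro stood at an end of all 3 comparisons.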

How the results depend on the processing

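No paired analysis was possible because the design has a single tumour sample for every condition. Intervals cover counting error only and are narrow, so most settings moved the log2 ratios of summed shares beyond them. For NTT against RTT the ratio in all cells was 0.05 and became 0.19 with TMM factors, -0.024 without mitochondrially encoded and ribosomal protein genes in the denominator, 0.060 in cells with 8000 to 16000 UMIs and 0.083 with cell types weighted equally. In monocytes 0.07 became 0.10 with TMM, -0.0027 with that denominator, 0.051 with cells weighted equally and 0.086 in the UMI window. For RTT_PTGS12KO against RTT_ROSA26 the ratio in all cells was -0.06, and it was 0.072 (TMM), -0.056 (denominator), -0.022 (cells equal), -0.024 (window), -0.062 (over 1500 genes and under 10% mitochondrial UMIs) and -0.0041 (types equal). In macrophages -0.09 became 0.0079 (TMM), -0.069 (denominator), -0.074 (cells equal), -0.086 (window) and -0.15 (without TAM_cycling), and -0.033 without Ctsk_Macro, chosen after seeing the data. The direction of both comparisons thus depended on the scaling, and the cause was not tested. For RTT_ROSA26 against RTT all ratios run were above 0, with 0.12 (TMM), 0.13 (cells equal), 0.14 (window) and 0.13 (types equal) in all cells, and 0.049 (TMM), 0.15 (denominator), 0.13 (cells equal), 0.15 (window) and 0.20 (without TAM_cycling) in macrophages, and 0.11 there without Ctsk_Macro, also chosen after seeing the data. Without a minimum CPM, 1 member passed 1.5-fold for NTT against RTT in monocytes and 2 for RTT_PTGS12KO against RTT_ROSA26 in macrophages, and the other 10 recounts matched the reported counts. Settings chosen after seeing the data gave, for mitochondrially encoded genes in monocytes, -0.60 (TMM), -0.66 (cells equal) and -0.53 (window). For Ctsk_Macro they gave 0.75 (TMM), 0.85 (denominator), 0.76 (cells equal), 0.67 (window) and 0.77 (without the 5% of cells with the most UMIs) in RTT. In RTT_ROSA26 they gave 0.96 (denominator), 0.83 (cells equal), 0.63 (window) and 0.86 (without those cells), and in RTT_PTGS12KO 0.76 (TMM), 0.77 (cells equal), 0.65 (window) and 0.79 (without those cells). For Ndufa4 in RTT_PTGS12KO against RTT_ROSA26 in macrophages they ran from -0.91 to -0.73. Of the values of named genes, 73 stayed within counting error and 27 moved beyond it.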
